A study of Homo sapiens with 24 samples.

Results

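The response of open chromatin to androgen in parental LNCaP cells was examined by comparing the 3 FAIRE-seq libraries of cells given dihydrotestosterone (DHT, the most potent natural androgen) with the 3 libraries of cells given only the solvent DMSO. These 6 libraries, taken by their titles, belong to a series of 24, in which parental LNCaP and its derivative RES-A, selected for resistance to the androgen receptor inhibitor enzalutamide (ENZ), each received DMSO, DHT, ENZ or DHT and ENZ together. LNCaP is an established, androgen-sensitive human prostate cancer line that carries a mutated androgen receptor. Before treatment, both groups grew for 3 days in RPMI in which the serum (5%) had been stripped of steroids with charcoal. They were then treated for 18 h, with 10 nM DHT in one group. The parental cells received no ENZ before treatment, whereas RES-A cells were kept in it at 10 µM. The study describes the replicates as biological triplicates of the same line.

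FAIRE separates the DNA of cross-linked, sheared chromatin with phenol. DNA that carries few nucleosomes collects in the aqueous layer, which is sequenced, so that promoters, enhancers and other sites without nucleosomes appear as peaks. The androgen receptor is a nuclear receptor that enters the nucleus when it binds DHT and occupies mostly distal enhancers, often beside the pioneer factor FOXA1, where nucleosomes are displaced and co-activators gather. In prostate cells it is best known for inducing KLK3, which encodes prostate-specific antigen, and TMPRSS2. Genes at the regions described here were not analysed, because the lists are in hg19 and the annotation used here was GRCh38.

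The DHT lists held 82224, 275774 and 212064 peaks in replicates 1, 2 and 3, and the DMSO lists held 194720, 262245 and 129409. DHT replicate 1 stood apart from the rest. Its genome-wide background, a measure of relative depth recovered from the lists, was 0.74 reads per base against 1.95 to 5.99 in the other 5 libraries. Its 50000th peak had a pileup of 8 fragments at the summit, and that of the other libraries 19 to 54. The groups overlapped in both peak number and background, and several results below are also given without DHT replicate 1.

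Lists of unequal depth cannot be compared by height, so peaks were ranked within each library by their summit pileup. The rank score of a region was log2(50000/rank) of its highest peak, which is 0 at rank 50000 and beyond or without a peak and rises by 1 each time the rank number falls by a factor of 2. A merge of all peaks of the 6 libraries gave 431517 regions, of which 206121 had a peak in 1 library and 55629 in all 6. Scores were tested in the 50287 regions that were above 0 in at least 3 libraries. Across these regions the score of DHT replicate 2 correlated with that of DHT replicate 3 at r = 0.86, the DMSO libraries correlated with each other at 0.78 to 0.88, and DHT replicate 1 correlated with the other libraries at 0.58 to 0.69. These coefficients are across regions, which are not independent. The median SD between the 3 libraries of a region was 0.47 with DHT and 0.42 with DMSO. The median difference of DHT minus DMSO was −0.10, and single regions below are to be read against that shift.

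Mean differences in rank were large at a minority of regions, most of which did not pass the test given next. The mean score was higher by more than 1 with DHT at 5097 regions and lower by more than 1 at 5674. Differences above 2 were found at 1006 regions and differences below −2 at 450. In 6201 of the 50287 regions (12.3%) all 3 DHT libraries ranked above all 3 DMSO libraries, and in 8362 (16.6%) all 3 ranked below.

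With limma and a Benjamini-Hochberg adjusted p under 0.05, 54 regions (0.107%) were higher with DHT and 0 (0%) were lower. The score has a floor at 0, which narrows the spread between libraries in a group near 0. A region could enter the test through the 3 libraries of either group alone. Of the 54 regions, 42, 42 and 31 scored above 0 in DMSO replicates 1, 2 and 3. How far the floor shaped the calls was not tested. At an unadjusted p under 0.05 limma gave 5177 higher and 5766 lower regions, together 21.8% of the 50287 tested. At the 54 regions the difference ran from 2.73 to 5.91 with a median of 3.43, and the DHT and DMSO scores overlapped at none of the 54. The regions were 186 to 1362 bp long (median 636.5 bp, against 491 bp for all tested regions) and 52 lay on 16 chromosomes, up to 7 on one (7 of the 4177 tested regions of chromosome 3 and 7 of the 2759 of chromosome 8). The call depended on having all 6 libraries. It fell to 2, 1 and 0 regions without DHT replicate 1, 2 or 3, and to 0, 2 and 0 without DMSO replicate 1, 2 or 3. The 2 regions that passed without DHT replicate 1, and the 1 without DHT replicate 2, were lower with DHT. Ranking by fold enrichment gave 3 calls and ranking by −log10 p gave 0.

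The median score of the 54 regions was 4.14 in DHT replicate 1, 3.89 in replicate 2 and 3.76 in replicate 3. In DMSO replicates 1, 2 and 3 it was 0.39, 0.35 and 0.04, below the median over all tested regions (0.97 in each). Within a region the 3 DHT scores spanned 1.05 in the median, against 0.90 over all tested regions. The shallow DHT replicate 1 had the lowest of the 3 DHT scores at 20 of the 54 regions and the highest at 20. In the 49 regions with a peak in all 6 libraries, the mean fold enrichment with DHT over that with DMSO had a median ratio of 1.29 and ran from 1.01 to 1.53. Over all 39778 tested regions with a peak in all 6 libraries the median ratio was 0.794. The fold enrichments themselves did not overlap between the groups at 19 of the 49 regions. The share over all tested regions was not computed, so this count has no baseline. The same 6 libraries called the 54 regions for a high score with DHT and a low one with DMSO. The medians, spans and ratios above follow in part from that choice and are given as description only.

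**Figure D1:**
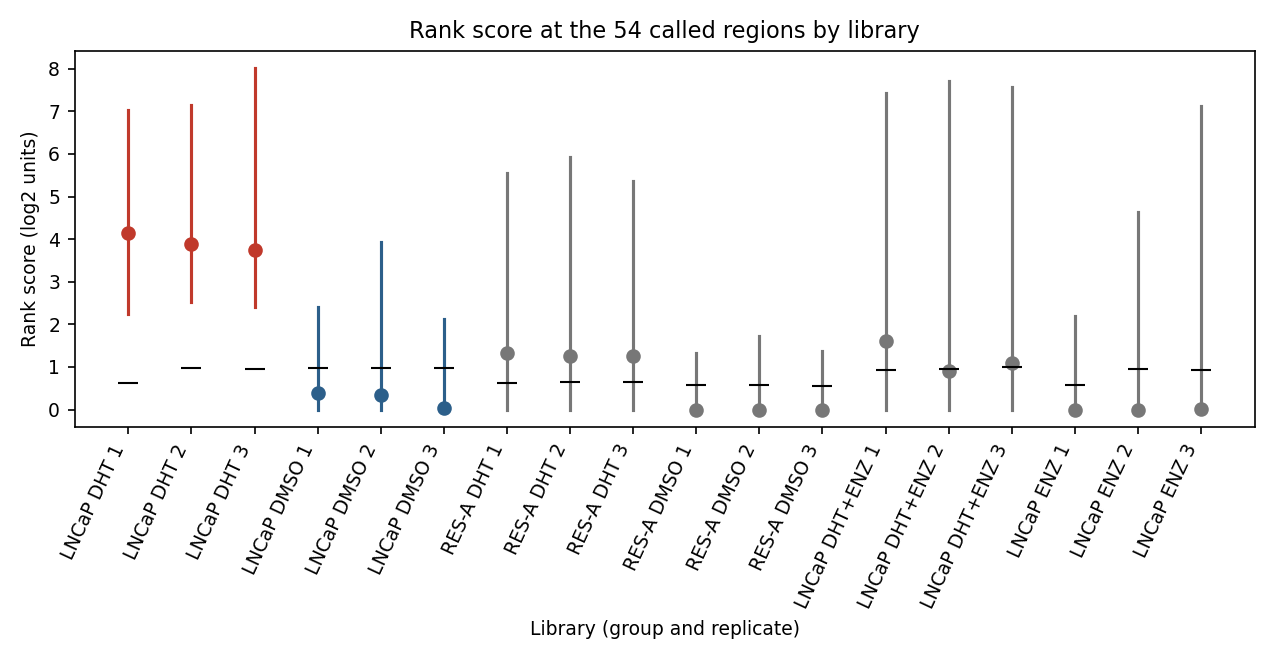
Rank score at the 54 called regions in 18 libraries. Circles are medians, vertical lines run from the lowest to the highest of the 54 scores and black dashes are the median over all tested regions; the DHT (red) and DMSO (blue) libraries of LNCaP chose the regions, and those in grey took no part in the choice, with medians of 1.25 to 1.33 in RES-A with DHT and 0 in RES-A with DMSO.

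The 6 regions with the largest difference among those called, with a peak in all 6 libraries, were singled out. The first was chr14:19566382-19567032 (hg19, as all positions here). Its peak ranked 983, 480 and 576.5 in DHT replicates 1, 2 and 3 and 22862, 23371.5 and 14993 in DMSO replicates 1, 2 and 3. The mean score was 6.27 with DHT and 1.32 with DMSO, a difference of 4.95 ± 0.62 (SE; limma adjusted p = 0.0202). All 3 DHT ranks were far above the DMSO ranks. Fold enrichment differed much less, at 6.06, 6.83 and 5.81 with DHT and 3.93, 4.61 and 4.28 with DMSO, again without overlap.

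The second, chr22:16274257-16274648, ranked 1123, 1323.5 and 626.5 with DHT and 35949, 16387.5 and 44169 with DMSO, a difference of 4.92 ± 0.63 (limma adjusted p = 0.0202). The third, chr15:20878039-20878578, ranked 983, 432 and 732.5 with DHT and 14708.5, 17902.5 and 30603 with DMSO, a difference of 4.89 ± 0.63 (limma adjusted p = 0.0202). The groups did not overlap at either region. The fifth, chr15:20603506-20604092, ranked 983, 1244 and 3827 with DHT and 51117.5, 36814.5 and 64899.5 with DMSO, a difference of 4.75 ± 0.62 (limma adjusted p = 0.0202). The sixth, chr14:20006591-20006985, ranked 983, 1790 and 762 with DHT and 22862, 18456.5 and 40237 with DMSO, a difference of 4.54 ± 0.62 (limma adjusted p = 0.0237). These 5 regions on the acrocentric chromosomes 14, 15 and 22 lay 212 to 1006 kb past the first peak of their chromosome in the 6 lists. Sequence beside the centromeres of acrocentric chromosomes is largely copied between chromosomes, and short reads from it can match several places. The part of such reads in these values was not tested.

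The fourth, chr3:86965950-86966594, lay inside a chromosome arm. Its peak ranked 701.5, 1690 and 4399.5 in DHT replicates 1, 2 and 3 and 45353.5, 50070.5 and 71689.5 in the DMSO replicates, a difference of 4.80 ± 0.66 (limma adjusted p = 0.0237). The ranks were at least 10 times apart between groups. Its fold enrichment was 11.5, 10.2 and 7.05 with DHT and 7.27, 7.08 and 4.35 with DMSO, so that the lowest DHT library fell below the 2 highest DMSO libraries on that scale.

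The next 6 regions in the same order were taken after their values had been seen, to show regions away from the acrocentric chromosomes. The part of reads that match several places was not tested at these regions either. At chr4:38011241-38011945 the peak ranked 2297.5, 2129.5 and 1328 with DHT and 28560.5, 44263 and 36721 with DMSO. At chr3:66622184-66623232, the longest of the 12 at 1049 bp, it ranked 2829.5, 1495.5 and 3827 with DHT and 35949, 42922.5 and 58851.5 with DMSO. At chr3:37335037-37335648 the DHT ranks, 2829.5, 2505 and 2609.5, lay close together and the DMSO ranks were 48139.5, 36814.5 and 48554. None of these regions had overlapping groups, and their differences were 4.27 ± 0.55, 4.07 ± 0.56 and 4.06 ± 0.51 (limma adjusted p = 0.0202, 0.0237 and 0.0202). At chr9:41913272-41914111 the peak was already high with DMSO, at ranks 9455.5, 7495.5 and 16361.5, and ranked 1123, 355 and 664 with DHT. At chr7:80513899-80514564 the ranks were 1885, 2664 and 4103 with DHT and 35949, 39157 and 53439 with DMSO. At chr7:144329522-144330079 they were 2297.5, 1323.5 and 2609.5 with DHT and 45353.5, 16886.5 and 30603 with DMSO. These last 3 also had separate groups, with differences of 4.03, 3.91 and 3.84 (limma adjusted p = 0.0477, 0.0237 and 0.0420).

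**Figure D2:**
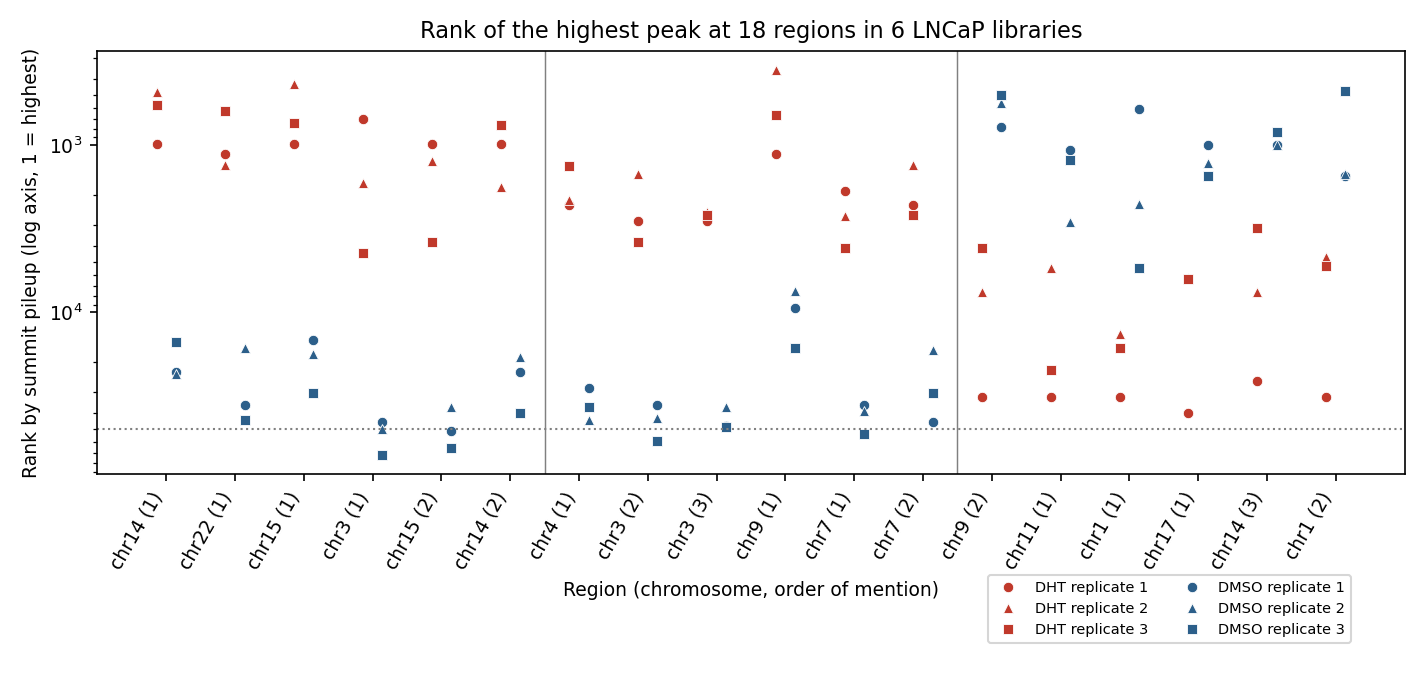
Rank of the highest peak (log axis, 1 at the top) at 18 regions in each DHT (red) and DMSO (blue) library, with replicates by symbol and rank 50000 dotted. The left and middle blocks are the 12 called regions in the order of the text and the right block is the 6 regions that fell most without passing the test; in the left and middle blocks all DHT points lie above all DMSO points, and in the right block DHT replicate 1 (circles) is the lowest of the 6 points.

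No region lower with DHT passed the test, and the 6 largest falls with a peak in all 6 libraries and separate groups are given as values only, chosen after they were seen. At chr9:34458425-34458912 the peak ranked 773.5, 562 and 502 with DMSO and 32306.5, 7588.5 and 4103 with DHT. The mean score was 6.38 with DMSO and 2.32 with DHT, a difference of −4.06 ± 0.78 (limma adjusted p = 0.0605). At chr11:64005017-64005394 the ranks were 1073.5, 2877 and 1221.5 with DMSO and 32306.5, 5420 and 22266.5 with DHT. DHT replicate 1 had the poorest rank at both. At the remaining 4 regions (chr1:8542886-8543442, chr17:47755323-47755778, chr14:77554554-77555044 and chr1:201665340-201666016) the differences were −3.30, −3.22, −3.17 and −3.17, with limma adjusted p from 0.0781 to 0.0961. DHT replicate 1 ranked between 25762 and 40372 at these 4, and the DMSO libraries between 475 and 5441. Without DHT replicate 1 the differences at the 6 regions were smaller, from −3.21 to −2.27.

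Presence was compared separately, among exactly 50000 top-ranked peaks per library. Of 82957 regions with such a peak in any of the 6 libraries, 23809 had one in all 6 and 21359 in a single library. A top-ranked peak was present in 3 of 3 DHT and 0 of 3 DMSO libraries at 1925 regions (2.32%), and in 0 of 3 DHT and 3 of 3 DMSO libraries at 1566 (1.89%). With 25000 top-ranked peaks the counts were 1282 and 1022. With all deposited peaks they were 777 and 2038, so that the larger group changed sides when the deeper lists were not cut to one size. Both kinds of region lay low in the lists, with a median rank of 30354.5 in the DHT libraries and 35949 in the DMSO libraries.

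Few of these regions lacked a peak altogether in the other group. At 1361 of the 1925 regions with DHT, all 3 DMSO lists still held a peak of lower rank, and at 24 none did. At 1075 of the 1566 regions with DMSO, 2 DHT lists held a peak of lower rank, at 477 all 3 did, and at 5 none did. The 3 strongest regions with no DMSO peak of any rank were on the unplaced contig GL000208.1 (89052 to 89247), at chr12:34849839-34850073 and at chr21:22748753-22749274. Their mean DHT scores were 3.40, 2.57 and 2.21, and their fold enrichments over the 3 DHT libraries were 1.90 to 2.71, 1.96 to 2.48 and 1.90 to 3.48. The 3 strongest with no DHT peak were chr2:90387978-90388325, chr4:96028348-96028661 and chr17:53234569-53234793, with mean DMSO scores of 1.55, 0.78 and 0.38 and fold enrichments between 1.80 and 3.52. None of the 6 passed the limma test of the score (adjusted p from 0.0688 to 0.261). The part of reads that match several places was not tested at these 6 regions either.

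DHT replicate 1 was checked on its own. Replicates 2 and 3 alone, against the 3 DMSO libraries, gave 3384 regions for DHT and 2264 for DMSO. Which side was larger depended on the library left out, with 2650 and 2659 without DHT replicate 2, 2814 and 2504 without DHT replicate 3, 2466 and 2457 without DMSO replicate 1, 2641 and 2647 without DMSO replicate 2, and 2363 and 2723 without DMSO replicate 3. Replicate 1 had a top-ranked peak at 56.9% of the former and 30.8% of the latter. At 19661 regions with a top-ranked peak in 2 or 3 of the other 5 libraries, whatever their group, the share was 39.1%. On the score, replicates 2 and 3 both ranked above all DMSO libraries at 9996 regions, and replicate 1 did so too at 62.0% of them against 27.1% of all tested regions. They ranked below at 10713 regions, and replicate 1 did so too at 78.1% against 39.6%. The same DMSO libraries enter both sides of these shares, so that picking regions where DMSO ranked low or high raises the share of replicate 1 even without an effect of DHT, and the shares do not show that replicate 1 went with its group.

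The regions were then read in libraries that had no part in choosing them. In RES-A, 36.9% of the 1925 regions with DHT only (35.6% to 38.3% over 3 libraries) had a top-ranked peak with DHT, and 6.55% (6.44% to 6.91%) with DMSO. Of the 1566 regions with DMSO only, 65.4% (65.2% to 67.1%) had one in RES-A with DMSO and 45.5% (43.7% to 47.8%) with DHT. The RES-A groups did not overlap for either set. Over all 82957 regions the shares were 48.7% to 49.1% in RES-A with DHT and 46.6% to 47.2% with DMSO. By the same rule of 3 against 0 libraries, 409 regions gained a top-ranked peak with DHT in both sublines, 21.2% of the LNCaP set and 9.57% of the RES-A set, and 145 lost one in both, 9.26% and 5.85%. Over all 82957 regions, 4.05% met the rule for DHT in RES-A and 1.63% that for DMSO. The opposite direction in RES-A was seen at 1 region of each LNCaP set.

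The same sets were read in the libraries with ENZ. In LNCaP, a top-ranked peak was found at 20.8% to 37.6% of the 1925 regions in the DHT+ENZ libraries, and at 6.75% to 12.6% in the libraries with ENZ alone, 1 of which was the shallowest of the series (background 0.41). In RES-A the shares were 15.1% to 16.0% with DHT+ENZ and 7.22% to 8.21% with ENZ. In both sublines the DHT+ENZ libraries lay above those with ENZ alone without overlap. The 1566 DMSO regions were present at 59.5% to 66.3% in LNCaP with DHT+ENZ and at 44.8% to 78.2% with ENZ, which overlap. The 44.8% came from the shallowest library, ENZ replicate 1, and ENZ replicates 2 and 3 stood at 78.2% and 76.1%. In RES-A the DMSO regions were present at 57.4% to 59.3% with DHT+ENZ and at 61.7% to 65.5% with ENZ, without overlap. Over all 82957 regions the shares were 57.8% to 58.7% in LNCaP with DHT+ENZ and 44.2% to 57.7% with ENZ, and 47.3% to 48.4% and 46.5% to 47.0% in RES-A. As LNCaP DHT and DMSO chose the regions, their own values of 100% and 0% are no measure against the DHT+ENZ values.

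**Figure D3:**
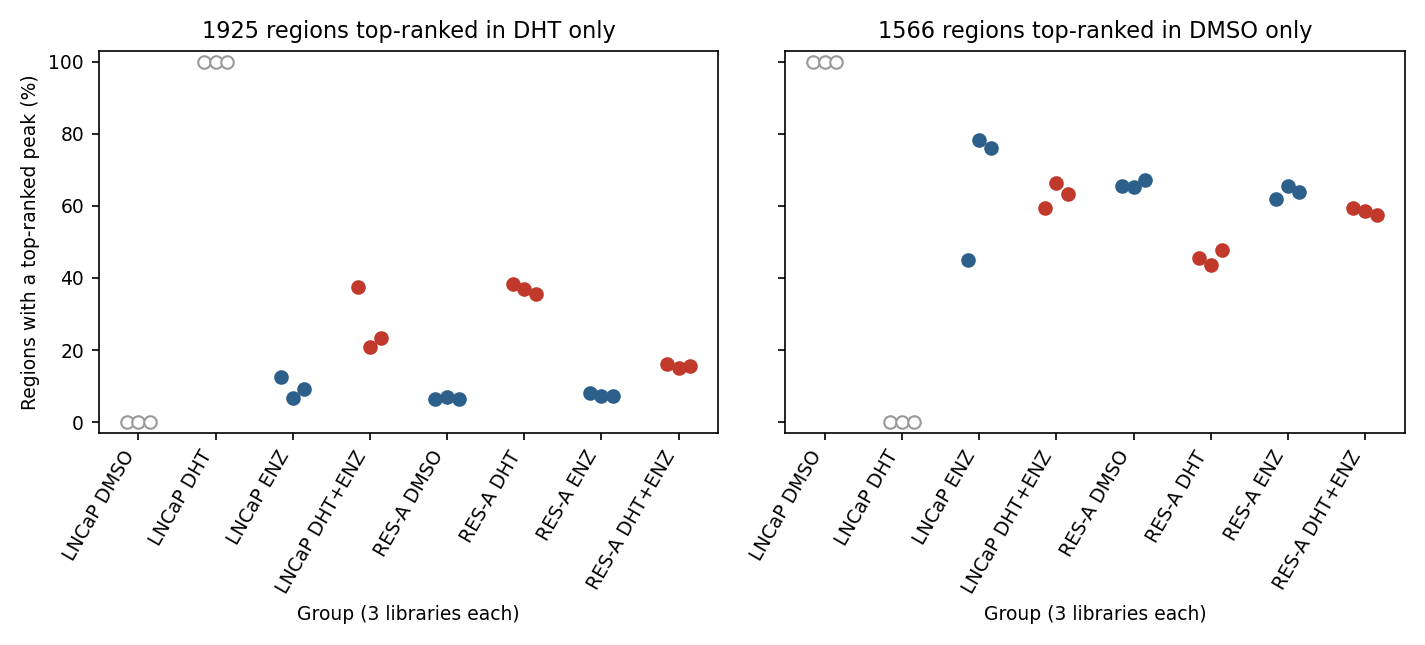
Share of the regions with a top-ranked peak in each of 24 libraries, for the 1925 regions present with DHT only (left) and the 1566 present with DMSO only (right) in LNCaP. Open circles are the 6 libraries that chose the regions, red circles the other groups with DHT and blue circles those without; RES-A with DHT lies above RES-A with DMSO on the left and below it on the right.

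The rank score was compared in the same way over all tested regions. Across the 50287 regions the DHT difference in LNCaP correlated with that in RES-A, which shares no library with it, at r = 0.51 (Spearman's rho 0.51). It correlated with the difference of DHT+ENZ minus ENZ in LNCaP at r = 0.33 (rho 0.30). Neighbouring regions and regions of one base composition share technical effects, and no test was made. Without DHT replicate 1 the first coefficient was also 0.51. At the 6201 regions with all DHT libraries above DMSO, the RES-A difference had a median of 0.26, with 63.7% of regions above 0 and 5.43% below. At the 8362 regions with all DHT libraries below, the median was −0.31, with 17.3% above 0 and 71.8% below. Over all tested regions the median was 0, with 37.7% above and 43.0% below. Taken from replicates 2 and 3 alone, the sets of 9996 and 10713 regions had RES-A medians of 0.22 and −0.28.

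**Figure D4:**
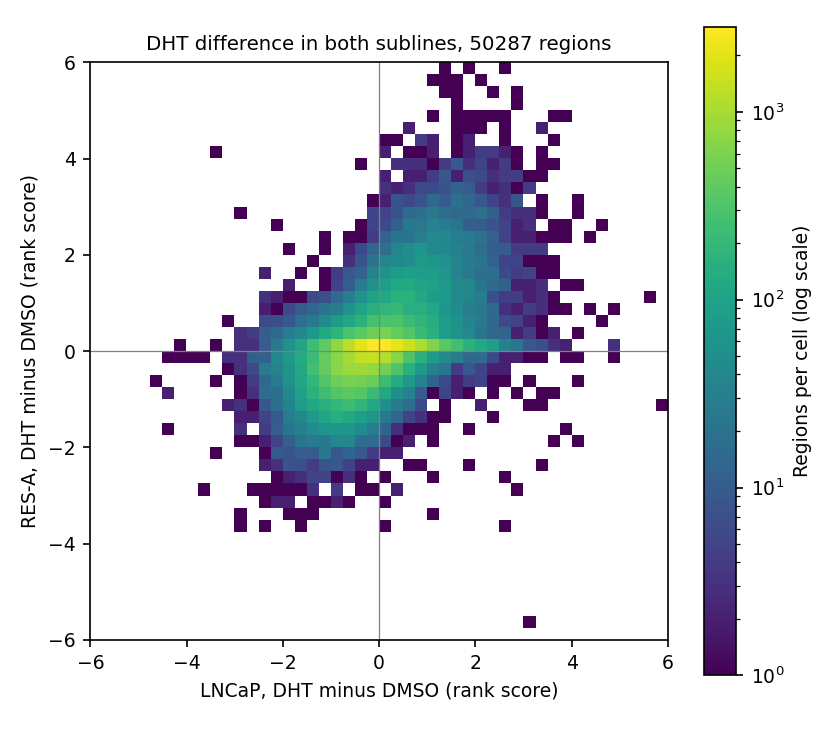
Difference in rank score of DHT minus DMSO in LNCaP (horizontal) and RES-A (vertical) for 50287 regions, counted in cells of 0.25 by 0.25 units with a log colour scale. The cloud runs from lower left to upper right (r = 0.51), and a band along the horizontal axis holds regions at or near 0 in RES-A.

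At the 54 called regions the RES-A difference had a median of 1.14 and was above 0 at 44 and below at 2. The median scores were 1.33, 1.25 and 1.25 in the RES-A DHT libraries and 0 in each RES-A DMSO library. The difference of DHT+ENZ minus ENZ in LNCaP had a median of 0.97 and was above 0 at 50 of the 54 regions. Over all tested regions this difference had a median of 0.07 and was above 0 at 56.6%. The same difference in RES-A had a median of 0.01 at the 54 regions and was above 0 at 27 of them and below at 2, beside a median of 0 and 39.8% above 0 over all tested regions. Single regions varied. At chr3:66622184-66623232 the RES-A scores were 2.90 to 3.21 with DHT and 0 in all 3 DMSO libraries, a difference of 3.03 ± 0.39 (limma adjusted p = 0.000314). At chr7:80513899-80514564 they were 2.07 to 2.89 and 0 (difference 2.48 ± 0.38, limma adjusted p = 0.000971), and at chr3:37335037-37335648 they were 1.13 to 1.72 and 0 (difference 1.44 ± 0.32, limma adjusted p = 0.0105). At chr9:41913272-41914111 the RES-A difference was 2.80 ± 0.49 (limma adjusted p = 0.00235). At chr4:38011241-38011945 and chr7:144329522-144330079 it was 0.89 and 1.29 and did not pass (limma adjusted p = 0.193 and 0.0803). The region chr3:86965950-86966594 had no peak of any rank in any RES-A library of either group. At the 5 regions on chromosomes 14, 15 and 22 the RES-A difference was between −0.02 and 0.82 and did not pass (limma adjusted p from 0.330 to 1).

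Whether the DHT difference itself differed between sublines was tested with the interaction term in limma over 12 libraries. It passed at 528 of the 50287 regions (1.05%), with the difference larger in LNCaP at 407 and larger in RES-A at 121. The tested regions had to score above 0 in at least 3 of the 6 LNCaP libraries, so that regions high in RES-A alone could not enter while regions at 0 in RES-A could, and the balance of 407 to 121 is shaped by that filter. Of the 54 regions called in LNCaP, 25 were among them, but these were picked for a large LNCaP difference and share the LNCaP libraries with the interaction. All 6 regions described first above, on chromosomes 3, 14, 15 and 22, passed. The count was not steady. Leaving out a RES-A library left 0 to 10 regions, and leaving out LNCaP DHT replicate 1, 2 or 3 gave 1874, 1222 and 1375. Leaving out LNCaP DMSO replicate 1, 2 or 3 gave 288, 471 and 735. Without DMSO replicate 3 the balance turned, with the difference larger in LNCaP at 353 regions and larger in RES-A at 382.

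Chromosomes differed in how their regions moved. Chromosome 19 fell most, with a median difference of −0.56 over 1214 regions (−0.50 without DHT replicate 1), followed by chromosome 22 (−0.30), 16 (−0.29) and 17 (−0.26). The mean score of chromosome 19 above that of all tested regions was 0.26, 0.18 and 0.32 in DHT replicates 1, 2 and 3, and 0.72, 0.53 and 0.99 in DMSO replicates 1, 2 and 3. The groups did not overlap. In RES-A the same values were 0.67, 0.55 and 0.70 with DHT and 0.95, 0.86 and 0.79 with DMSO, again apart. Only 10 of the 1771 top-ranked regions on chromosome 19 (0.565%) were present with DHT only and 34 (1.92%) with DMSO only. Chromosome 18 stood at the other end. Its median difference was 0.03, its mean score was −0.03, −0.08 and −0.05 with DHT and −0.20, −0.20 and −0.19 with DMSO, and 68 of 2048 regions (3.32%) were present with DHT only and 25 (1.22%) with DMSO only.

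In all, the chromosome means did not overlap between DHT and DMSO for 10 of 23 chromosomes, 4 higher with DHT (8, 10, 13 and 18) and 6 lower (1, 9, 11, 16, 17 and 19). Across the 23 chromosomes the mean differences in LNCaP and RES-A correlated at r = 0.87 (rho 0.72), as a description. In DHT+ENZ against ENZ the median of chromosome 19 was 0.02, beside 0.07 for all tested regions. Chromosome 19 is rich in genes and in G and C, and chromosomes 13 and 18 are poor in both. Within the DMSO group the chromosome 19 mean ran against depth, from 0.53 at a background of 4.84 to 0.99 at 1.95, whereas DHT replicate 1, with the lowest background, had 0.26. The part of depth and base composition in these differences was not tested.

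**Figure D5:**
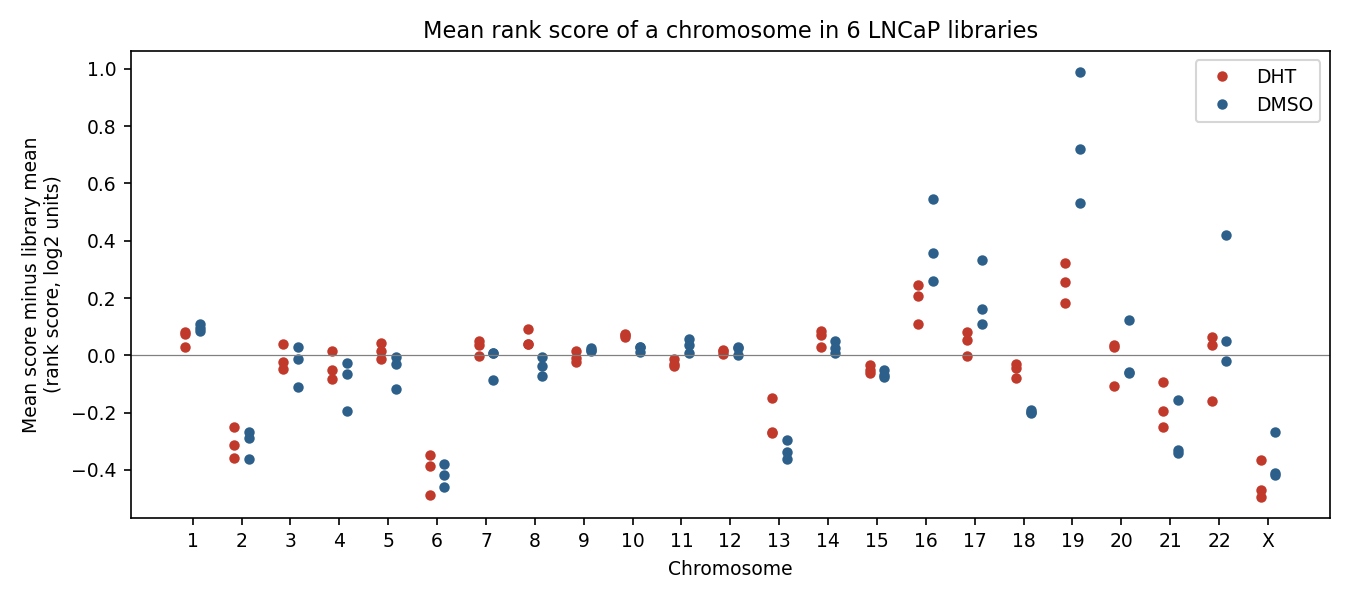
Mean rank score of the tested regions on each chromosome minus the mean over all tested regions of the same library, in the 3 DHT (red) and 3 DMSO (blue) libraries of LNCaP. On chromosome 19 the DHT libraries lie at 0.18 to 0.32 and the DMSO libraries at 0.53 to 0.99, and on chromosome 18 the DHT libraries lie above the DMSO libraries.

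Distances between regions present in 1 group only were described without a test. Of the 1925 DHT regions, 21.5% had another within 100000 bp and 3.32% within 10000 bp, where 16.3% and 2.097% of all 82957 regions had a DHT region that near. Of the 1566 DMSO regions, 12.1% and 1.92% had another, where 13.5% and 1.71% of all regions had a DMSO region that near. In windows of 1000000 bp the most DHT regions, 7 of 53, lay on chromosome 17 from 19000001 to 20000000, where 1 region was present with DMSO only. In RES-A the same window held 6 regions with DHT only and 0 with DMSO only. A window on chromosome 10 from 17000001 to 18000000 held 6 of 39 in LNCaP, and 0 with DHT only in RES-A. The windows were picked for their counts, which were not tested.

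The final questions were whether whole peak sets and peak lengths differed. Consensus regions, those with a peak in at least 2 of 3 libraries, numbered 156691 with DHT and 166359 with DMSO. With DHT, 17.5% of them overlapped no consensus region of the other group, and with DMSO 22.6%. The difference of −5.12 percentage points was not distinguishable from relabelled libraries (two-sided exact permutation test over 20 relabellings, p = 0.8, where the smallest possible p is 0.1). It was −7.45 points without DHT replicate 1 and turned to 23.5 and 28.2 points without DMSO replicate 1 or 2. Without DHT replicate 2 or 3 it was −57.6 and −55.2. In those 2 cases the shallow DHT replicate 1 had to share every DHT consensus region. Likewise, without DMSO replicate 1 or 2, the DMSO library with fewest peaks, replicate 3, had to share every DMSO consensus region. The unique regions were shorter than the shared ones in both groups, with medians of 243 and 353 bp for DHT and 242 and 370 bp for DMSO.

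The base-pair Jaccard index, the shared length over the total length covered by the top-ranked peaks of 2 libraries, was 0.62 between DHT replicates 2 and 3 and 0.50 to 0.61 among the DMSO libraries. Between groups it was 0.45 to 0.58 without DHT replicate 1 and 0.30 to 0.36 with it. DHT replicate 1 stood at 0.33 and 0.37 with the other DHT libraries, a mean of 0.35, against a mean of 0.33 with the DMSO libraries. The mean index within groups exceeded that between groups by 0.04 (two-sided exact permutation test, p = 0.2). With all deposited peaks the sign turned, to −0.01.

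Median peak length was 166, 212 and 207 bp in the DHT lists and 230, 242 and 210 bp in the DMSO lists, or 195 ± 25.2 and 227 ± 16.2 bp (SD, n = 3 libraries each). The lists overlapped by 2 bp. The difference of −32.3 bp was larger than either SD and did not pass (two-sided exact permutation test, p = 0.2, where the smallest possible p is 0.1). DHT replicate 1 was the shortest, and without it the difference was −17.8 bp. At single regions with a peak in all 6 libraries, 0 of 55629 (0%) differed in length by limma at an adjusted p under 0.05. An unadjusted p under 0.05 was found at 3858 (6.94%). Length and rank moved together. At the 39778 tested regions among them, the difference in log2 length, each library centred on its median, correlated with the difference in score at r = 0.45 across regions. The median log2 length difference was 0.43 at the 49 called regions with a peak in all 6 libraries, 0.43 at 1225 regions with DHT only and −0.31 at 442 with DMSO only, beside 0.02 over all tested regions. A higher pileup widens the stretch above a caller's threshold, so length is no independent readout here.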

How the data were processed

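FAIRE-seq was performed by the authors on 24 samples, 3 per group. Reads were aligned to hg19 with BWA 0.7.8-r455, duplicates were marked with Picard 1.118, and peaks were called in each library separately with MACS2 2.1.0, per the labels and methods. The options of MACS2 are not given in the sources used here. The deposited lists give the summit pileup (a signal in fragments, unscaled), −log10 of the p-value and of the q-value, the fold enrichment (a ratio to the expected pileup) and the length of each peak. No list held a q above 0.05 or a peak under 100 bp. Read totals were not used. Background was recovered as the commonest value of (pileup + 1)/fold − 1 in a list, assuming that the authors' caller added 1 to both. On 15 of 24 chromosomes the last peak exceeded the GRCh38 length.

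Groups and replicate numbers came from the titles. Peaks were merged at an overlap of 1 bp. Scores were fitted with limma 3.58.1 in R 4.3.3 (lmFit and eBayes with trend) and p-values were adjusted over all tested regions. Pileup ties received their mean rank. Lengths were the log2 covered length, centred on the library median. Single values were tested by exact permutation of libraries. Named regions were, per direction, the 6 called regions with the largest difference, separate groups and a peak in all 6 libraries, and the 3 with the highest mean score among those top-ranked in all 3 libraries of one group without any peak in the other. The comparison, lists and rules were chosen with earlier results of these data known.

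Alternatives were ranks by −log10 p or fold enrichment, other rank limits and filters, fold enrichment itself, autosomes alone, a q of 0.01, 500-bp tiles, no trend, leaving out each library, and the replicate block. The presence counts without each library, and the region sets and chromosome medians without DHT replicate 1, were added after seeing the data.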

Additional observations from a re-analysis of the deposited data

Results flagged for a closer look

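At 6 regions the DHT difference was larger in LNCaP than in RES-A by the interaction term of limma, and they were therefore marked for a closer look. The excess in rank score was 4.96 at chr14:19566382-19567032, 4.71 at chr22:16274257-16274648, 4.07 at chr15:20878039-20878578, 4.80 at chr3:86965950-86966594, 4.75 at chr15:20603506-20604092 and 3.82 at chr14:20006591-20006985 (limma adjusted p from 0.00983 to 0.0132). They had the largest LNCaP difference of the called regions with a peak in all 6 libraries, so the excess is in part set by that choice. The interaction passed at 0 regions with the replicate block.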

How the results depend on the processing

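The main limits were depth and the small number of libraries. The number of regions called on the score was 54 of 50287. It was 0 of 51634 with ranks by −log10 p, 3 of 51405 with ranks by fold enrichment and 0 of 25323 with a rank limit of 25000. A limit of 80000 gave 213 of 80920, and regions above 0 in any library gave 0 of 80171. Regions with a peak in all 6 libraries gave 10 of 55629, and 377 of 55629 with centred log2 fold enrichment (261 higher, 116 lower). Autosomes gave 112 of 49114 and 500-bp tiles 5 of 49984 (2 higher, 3 lower). Without the trend the count was 524 of 50287 (425 higher, 99 lower). Leaving out 1 library gave 0 to 2 calls, 4923 to 5648 regions present in 1 group only, 0 to 1874 interactions, 0 length calls, a unique share difference of −57.6 to 28.2 points, a length difference of −41.0 to −17.8 bp and a Jaccard difference of 0.00144 to 0.0801. Regions present in 1 group only numbered 3491, and 2304 with 25000 top-ranked peaks. The Jaccard difference turned to −0.00639 with all deposited peaks.

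The titles do not state whether the replicate numbers pair the libraries, and the main fits did not pair them. Deviations of same-numbered libraries from their group means correlated at 0.06, 0.34 and 0.10. DHT replicates 2 and 3 correlated best with the DMSO replicate of their own number, and DHT replicate 1 with DMSO replicate 3 (0.14). These values do not settle the pairing. With the replicate block the score gave 1876 calls in 50287 regions (1423 higher, 453 lower), the 54 regions among them. The interaction gave 0 and lengths gave 0. The unique share, length and Jaccard differences of −5.12, −32.3 and 0.0379 had p-values of 0.75, 0.25 and 0.25 by exact permutation within the block. The smallest possible p of that permutation test is 0.25. For the 24 named regions, 352 values under other settings kept their direction, of which 136 no longer passed and 12 newly passed. The regions were picked for separate groups or for peaks in 1 group only, so leaving out a library could not turn their direction. The replicate block, the fit without trend and the autosomes alone leave the estimate itself unchanged. The kept direction is therefore no measure of stability.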
